A study of Mus musculus with 11 samples.

Results

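Fetal livers lacking caspase-8 were compared with fetal livers in which Casp8 was intact. The livers were placed on either side by their genotype label alone, and all 11 livers of the series entered, 6 of them Casp8-deficient and 5 Casp8-intact. RNA was taken from untreated mouse livers at E15.5. The Casp8-intact side held 3 WT livers and 2 Tnfr1 KO livers (labelled TNFR1KO), and the Casp8-deficient side held 3 Casp8 Mlkl dKO livers (Casp8 MLKL dKO, lacking caspase-8 and the pseudokinase MLKL) and 3 Casp8 Tnfr1 dKO livers (Casp8 TNFR1 dKO, lacking caspase-8 and the TNF receptor TNFR1). All lines were kept on a C57BL/6N background, with the Casp8 allele made in C57BL/6N embryonic stem cells and the Mlkl and Tnfr1 alleles brought in by backcrossing. Loss of Casp8 always came with loss of Mlkl or Tnfr1 in these livers. No liver lacked Mlkl alone, so loss of Casp8 and loss of Mlkl cannot be told apart in the Casp8 Mlkl dKO livers, whereas the Casp8 Tnfr1 dKO livers had 2 Tnfr1 KO livers to set against them. The sources do not say whether the livers of a genotype came from separate litters, and p-values therefore measure the spread between these samples.

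Caspase-8 is the protease that death receptors such as TNFR1 and Fas recruit through the adaptor FADD. It starts apoptosis, and with cFLIP it cleaves RIPK1 and RIPK3 and so holds back necroptosis, a lytic form of death that MLKL carries out by breaking the plasma membrane. RIPK3 can also be engaged through ZBP1, which senses nucleic acids and is itself induced by interferon, and through TRIF, the adaptor of TLR3 and TLR4. The fetal liver is at this age the main site of blood formation, so its RNA comes from erythroid, myeloid and other hematopoietic cells as well as from hepatocytes, endothelium and stroma. In bulk RNA, fewer cells of a type and less RNA per cell cannot be told apart.

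The libraries held 23129212 to 35819339 gene counts, with a median of 25733946, and 17243 genes were tested. Levels are given as CPM, a gene's count relative to the TMM-scaled library total, and differences on the log2 scale with their standard error (SE). P-values come from the quasi-likelihood test of edgeR and were adjusted over all tested genes by Benjamini-Hochberg, a gene being called when the adjusted p was under 0.05. A pair of livers stood apart from the other 9. The 10 most counted genes took 24.0% of the counts in Casp8 Mlkl dKO replicate 1 and 22.5% in Casp8 Tnfr1 dKO replicate 3, against 11.7% to 15.2% elsewhere. Casp8 Mlkl dKO replicate 1 had the highest summed level of 15 hepatocyte genes (242631 CPM against 56400 to 109153 in the other 10), with 143 CPM of B lineage genes against 24.6 to 56.2. Casp8 Tnfr1 dKO replicate 3 had 1546 CPM of striated muscle genes against 14.6 to 36.6, and it was the only liver with a female pattern, with 3409 CPM of Xist against at most 0.570 and 109 counts on the Y chromosome against 4161 to 7976. Hemoglobin genes took 13.0% of its counts, against 3.70% to 6.17% in the other 10. Counts that move on leaving out this pair of livers are given with and without them, and the part of the tissue differences in those results was not tested.

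Casp8 itself was lower in every liver labelled Casp8-deficient. Casp8 (ENSMUSG00000026029, chromosome 1, 58795374 to 58847503, GRCm38) measured 33.6, 30.5 and 27.7 CPM in the WT livers and 33.9 and 30.5 CPM in the Tnfr1 KO livers. It measured 7.82, 9.21 and 10.2 CPM in the Casp8 Mlkl dKO livers and 13.1, 11.5 and 21.9 CPM in the Casp8 Tnfr1 dKO livers. The sides did not overlap, reads still fell on the gene in every deficient liver, and the highest deficient value belonged to Casp8 Tnfr1 dKO replicate 3. Averaged over the genotypes, Casp8 fell by 1.41 on the log2 scale (SE 0.18, adjusted p = 0.00282), and 4.37% of its sequence is shared with the neighbouring transcript Gm20257. Mlkl, the executioner of necroptosis, measured 0.730 to 1.22 CPM in the Casp8 Mlkl dKO livers, 3.68 to 4.46 CPM in the Casp8-intact livers and 13.3 to 24.6 CPM in the Casp8 Tnfr1 dKO livers. Mlkl was thus below all intact livers in one Casp8-deficient genotype (log2 difference −2.06, adjusted p = 0.0349) and above all of them in the other (2.07, adjusted p = 0.000809), the first of these calls being lost in 10 of the 11 fits that left out a liver. Tnfrsf1a, which encodes TNFR1, measured 49.8 and 50.5 CPM in the Tnfr1 KO livers and 47.1 to 53.4 CPM in the WT livers, so its total count does not check the Tnfr1 label.

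Of the 17243 genes tested, 598 (3.47%) had all 6 Casp8-deficient livers above all 5 Casp8-intact livers, and 232 (1.35%) had all 5 Casp8-intact livers above all 6. For each such gene the exact two-sided permutation test over all ways of dividing the livers gives p = 0.00433, the smallest this design allows, so it ranks none of them. At the edge of this rule, 5031425F14Rik was the gene just inside on the higher side and Edn1 the gene just outside, the lowest deficient and highest intact liver being −1.73406 and −1.73419 log2 CPM for the first and 0.231584 and 0.231729 log2 CPM for the second. Cdca3 and Tab1 stood in these places on the lower side. By the edgeR test, 368 genes (2.13%) were called higher in Casp8-deficient livers and 24 (0.139%) lower. Both criteria were met by 216 genes on the higher side (1.25% of those tested) and 17 on the lower side (0.0986%). Another 382 genes lay wholly above without being called, and 152 were called higher with overlapping livers. Without Casp8 Tnfr1 dKO replicate 3 there were 1040 higher and 325 lower calls, among them all 368 and all 24. Leaving out a Casp8-intact liver lowered the counts, to 77 higher calls without Tnfr1 KO replicate 1, 81 without Tnfr1 KO replicate 2 and 163 to 190 without a WT liver, with 3 or 4 lower calls in each of these fits. Lower calls also numbered 88 without Casp8 Mlkl dKO replicate 1, 4 without its replicate 3 and 11 without Casp8 Tnfr1 dKO replicate 2.

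**Figure D1:**
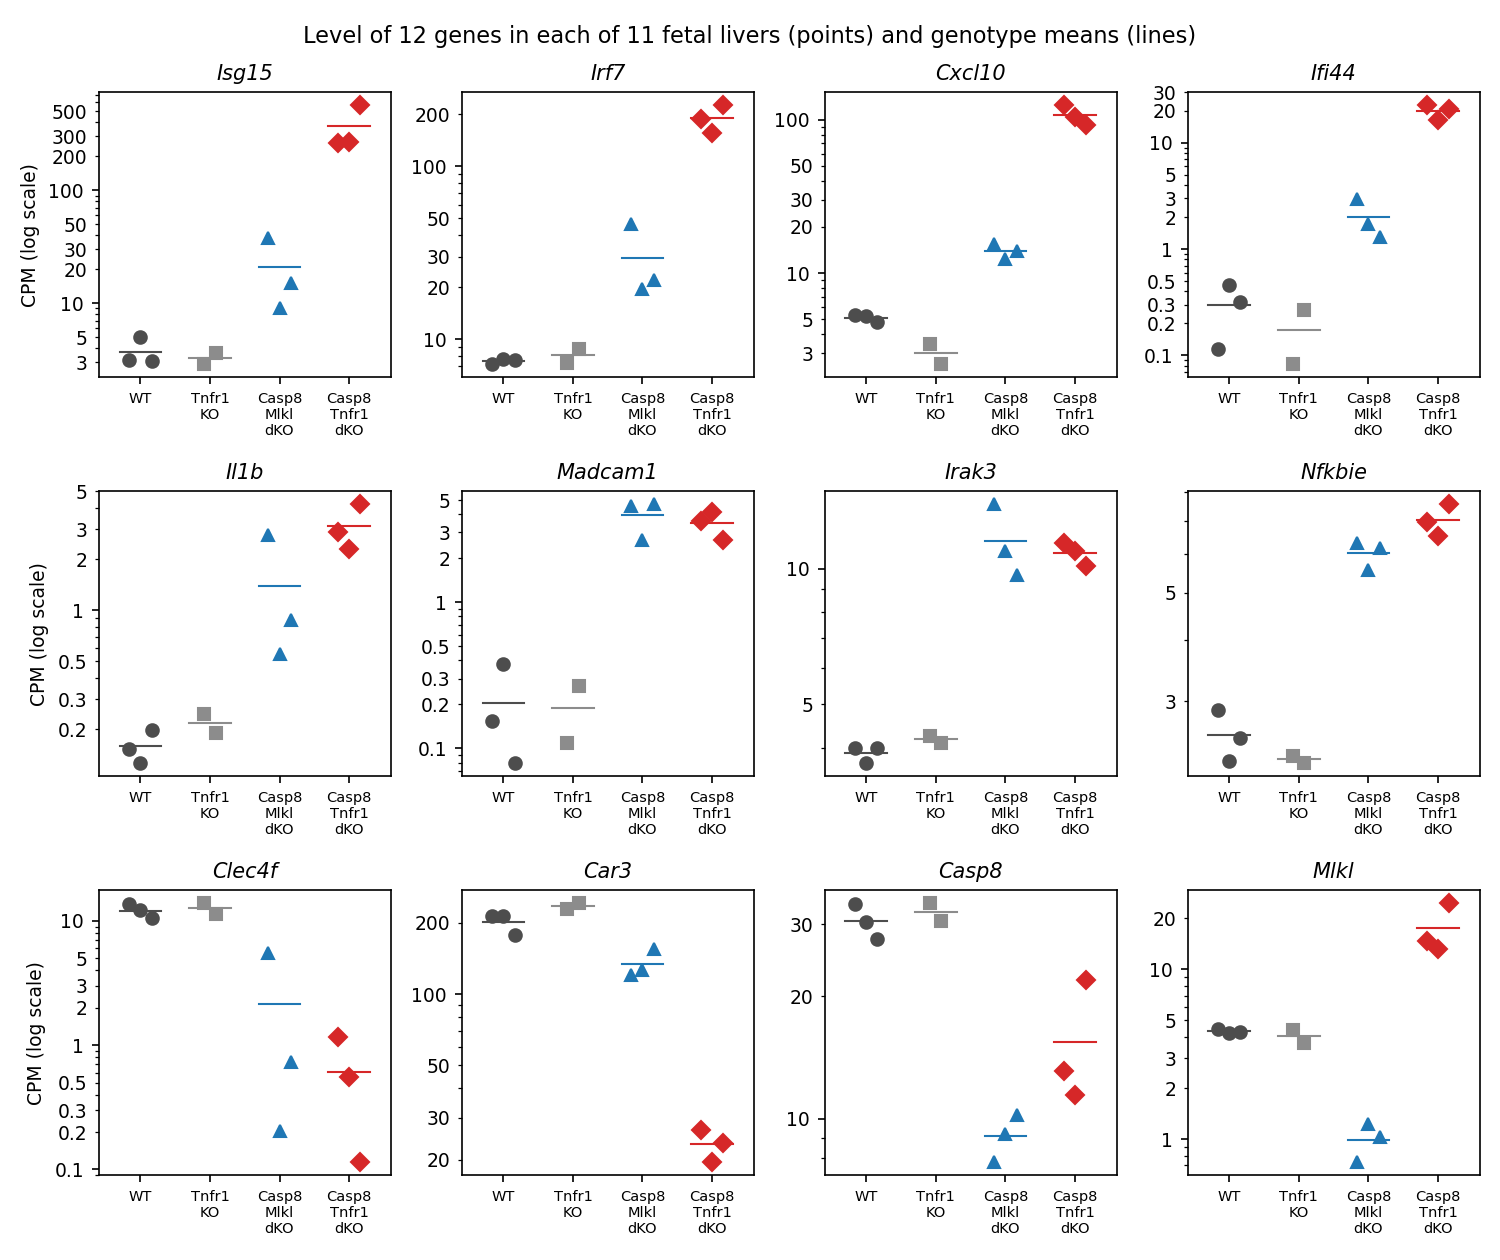
Level of 12 genes in each liver, in CPM on a log axis, by genotype, where points are livers and lines genotype means. For Isg15, Irf7, Cxcl10, Ifi44, Il1b, Madcam1, Irak3 and Nfkbie all 6 Casp8-deficient livers lay above all 5 Casp8-intact livers, for Clec4f, Car3 and Casp8 all lay below, and Mlkl was lowest in the Casp8 Mlkl dKO livers and highest in the Casp8 Tnfr1 dKO livers.

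The genes on the higher side were ranked by the smaller of the changes in the 2 Casp8-deficient genotypes, a ranking that uses these same livers, so their changes are a description. The 12 leading genes were Iigp1, Madcam1, Apol9b, Ifi44, Serpina3f, Tgtp2, Tgtp1, Il1b, Oas3, Cxcl9, Serpina3g and Isg15, and 5 of them (Isg15, Oas3, Ifi44, Iigp1 and Cxcl9) are on the interferon gene lists described further on. Isg15, a ubiquitin-like modifier that is attached to proteins after interferon signalling, measured 3.11, 4.99 and 3.08 CPM in the WT livers and 2.87 and 3.61 CPM in the Tnfr1 KO livers. It measured 38.2, 9.09 and 15.1 CPM in the Casp8 Mlkl dKO livers and 265, 270 and 570 CPM in the Casp8 Tnfr1 dKO livers. The intact livers, the Casp8 Mlkl dKO livers and the Casp8 Tnfr1 dKO livers formed 3 ranges that did not meet. The mean change of Isg15 was 4.65 (SE 0.46, adjusted p = 0.000834), made up of 2.58 in Casp8 Mlkl dKO (adjusted p = 0.111) and 6.73 in Casp8 Tnfr1 dKO (adjusted p = 7.81e-05).

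Ifi44, another interferon-induced gene, measured 0.115, 0.461 and 0.316 CPM in the WT livers, 0.0821 and 0.266 CPM in the Tnfr1 KO livers, 2.96, 1.71 and 1.30 CPM in the Casp8 Mlkl dKO livers and 22.7, 16.4 and 21.03 CPM in the Casp8 Tnfr1 dKO livers. It was called in each Casp8-deficient genotype, by 3.14 (adjusted p = 0.0349) and 6.48 (adjusted p = 4.56e-05), although the call in Casp8 Mlkl dKO was lost on leaving out any 1 liver other than Casp8 Tnfr1 dKO replicate 3. Oas3, an oligoadenylate synthetase that responds to double-stranded RNA, measured 0.730 to 1.72 CPM in the intact livers, 18.3, 4.10 and 3.32 CPM in the Casp8 Mlkl dKO livers and 84.8, 90.0 and 208 CPM in the Casp8 Tnfr1 dKO livers. In both genes the Casp8 Mlkl dKO livers lay between the other groups, with replicate 1 the highest of them. Il1b, a cytokine that myeloid cells release when inflammasomes are active, measured 0.126 to 0.246 CPM in the intact livers, 2.76, 0.552 and 0.879 CPM in the Casp8 Mlkl dKO livers and 2.87, 2.31 and 4.22 CPM in the Casp8 Tnfr1 dKO livers. Its mean change was 3.44 (SE 0.49, adjusted p = 0.00623), and it was not called without Tnfr1 KO replicate 1 or without replicate 2.

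Cxcl9, a chemokine that attracts activated T cells, was 0 to 0.118 CPM in the intact livers, 0.268 to 0.770 in the Casp8 Mlkl dKO livers and 0.798 to 4.73 in the Casp8 Tnfr1 dKO livers. Serpina3f and Serpina3g, inhibitors of serine proteases, differed by 4.69 (adjusted p = 0.000739) and 4.25 (adjusted p = 0.000655) on average. Iigp1, an immunity-related GTPase, reached 92.7 CPM in Casp8 Mlkl dKO replicate 1 against 3.719 and 6.0002 CPM in the other Casp8 Mlkl dKO livers, 50.6 to 72.1 CPM in the Casp8 Tnfr1 dKO livers and 1.34 to 2.35 CPM in the intact livers. Its mean change was 4.63 with that liver and 3.22 without it, its change in Casp8 Mlkl dKO 4.18 and 1.36, and its call (adjusted p = 0.0269) was lost on leaving out any 1 intact liver. The other GTPases Tgtp1 and Tgtp2 share 81.2% and 86.6% of their sequence with near-identical genes, so the counts may have been split between them. Apol9b, an apolipoprotein L gene that shares 52.3% of its sequence with Apol9a, had no count in any intact library, 1 or 2 counts in each Casp8 Mlkl dKO library and 15, 19 and 23 counts in the Casp8 Tnfr1 dKO libraries. With a floor of 3 counts per library, Apol9b was at least 6.42-fold higher in Casp8 Tnfr1 dKO than in intact livers, and the Casp8 Mlkl dKO libraries were at or under that floor. Of these 12 genes, Ifi44, Isg15, Madcam1, Serpina3f, Serpina3g and Tgtp2 stayed called whichever liver was left out.

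Promoter sequence was looked at because genes of this kind carry a known element, the interferon-stimulated response element (ISRE), searched here as GAAA, any 2 bases, GAAA on both strands within 250 bases upstream of the start (RefSeq, GRCm38.p6). It was present in 34 of the 164 matched promoters of the 216 genes (20.7%), in 378 of 11781 matched promoters of tested genes (3.21%), in 978 of all 32851 promoters (2.98%) and in 0 of the 13 matched promoters of the 17 lower genes. The gamma-activated sequence, written TTC, any 3 bases, GAA and searched separately so that matches may overlap, was present in 27 of the 164 (16.5%), 863 of the 11781 (7.33%), 2306 of all promoters (7.02%) and 0 of the 13. The 4 promoters below belong to the first of the leading genes that hold an ISRE, namely Apol9b (chr15:77728822-77729071, plus strand), Tgtp2 (chr11:49064213-49064462, minus strand), Tgtp1 (chr11:48992247-48992496, minus strand) and Oas3 (chr5:120777660-120777909, minus strand). Each is written 5′ to 3′ in the sense of its gene, with the ISRE match in capitals.
Apol9b: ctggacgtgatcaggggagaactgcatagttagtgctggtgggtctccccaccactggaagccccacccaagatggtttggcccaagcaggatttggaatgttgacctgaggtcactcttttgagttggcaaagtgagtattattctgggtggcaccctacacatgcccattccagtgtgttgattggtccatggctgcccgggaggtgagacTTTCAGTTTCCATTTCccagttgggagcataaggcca
Tgtp2: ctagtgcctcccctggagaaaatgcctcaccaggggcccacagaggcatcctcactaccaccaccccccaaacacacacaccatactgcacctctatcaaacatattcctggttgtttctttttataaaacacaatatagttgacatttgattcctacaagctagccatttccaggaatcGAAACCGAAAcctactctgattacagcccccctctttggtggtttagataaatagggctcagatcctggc
Tgtp1: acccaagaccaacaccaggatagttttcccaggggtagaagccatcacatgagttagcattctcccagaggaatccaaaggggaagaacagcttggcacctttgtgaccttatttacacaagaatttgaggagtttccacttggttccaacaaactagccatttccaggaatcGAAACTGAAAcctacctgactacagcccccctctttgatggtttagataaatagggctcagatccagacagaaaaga
Oas3: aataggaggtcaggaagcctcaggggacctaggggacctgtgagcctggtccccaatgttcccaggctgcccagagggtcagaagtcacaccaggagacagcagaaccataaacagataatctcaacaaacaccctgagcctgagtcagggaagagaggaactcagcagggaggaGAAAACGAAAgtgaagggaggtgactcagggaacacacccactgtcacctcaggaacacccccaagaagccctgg
The match began 70 bases upstream of the start in Tgtp2, 77 in Tgtp1 and 75 in Oas3, and Apol9b held 2 overlapping matches on the opposite strand. The leading genes Madcam1, Ifi44, Serpina3f and Il1b had no such match in this window, which says nothing about the factors that bind there.

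A small group of genes moved by nearly the same amount in both Casp8-deficient genotypes. Madcam1, an adhesion molecule on which lymphocytes enter tissues, measured 0.154, 0.377 and 0.0789 CPM in the WT livers, 0.109 and 0.266 CPM in the Tnfr1 KO livers, 4.58, 2.64 and 4.70 CPM in the Casp8 Mlkl dKO livers and 3.57, 4.13 and 2.68 CPM in the Casp8 Tnfr1 dKO livers. The 6 deficient livers lay within one range, well clear of the intact livers. Madcam1 was 4.34 above the intact livers in Casp8 Mlkl dKO (adjusted p = 0.0106) and 4.15 above them in Casp8 Tnfr1 dKO (adjusted p = 0.000577), and the difference between these genotypes was −0.19 (SE 0.44, adjusted p = 0.836). The mean change of Madcam1 was called under all 21 alternatives tried, and ranged from 3.97 to 4.63, while its call in Casp8 Mlkl dKO alone was lost in 6 of the 11 fits that left out a liver.

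Irak3, Nfkbie and Il2rg, named here after their values were seen, also moved by similar amounts. Irak3, a kinase-like brake on Toll-like receptor signalling, measured 3.69 to 4.24 CPM in the intact livers, 13.9, 10.95 and 9.67 CPM in the Casp8 Mlkl dKO livers and 11.4, 10.9 and 10.1 CPM in the Casp8 Tnfr1 dKO livers. Nfkbie, an inhibitor of NF-κB that NF-κB induces, measured 2.24 to 2.88 CPM in the intact livers, 6.32, 5.55 and 6.15 CPM in the Casp8 Mlkl dKO livers and 6.96, 6.51 and 7.58 CPM in the Casp8 Tnfr1 dKO livers. Il2rg, the common chain of several cytokine receptors, measured 4.49 to 6.88 CPM in the intact livers, 12.7 to 16.6 CPM in the Casp8 Mlkl dKO livers and 12.4 to 15.0 CPM in the Casp8 Tnfr1 dKO livers. In none of them did intact and deficient livers overlap, and in Irak3 and Il2rg the livers of the 2 deficient genotypes did. The mean changes were 1.47 for Irak3 (adjusted p = 0.000621), 1.42 for Nfkbie (adjusted p = 0.000834) and 1.29 for Il2rg (adjusted p = 0.00275), and 27.5% of the Il2rg sequence is shared with the overlapping Gm20489. A fit with Casp8 status as the only factor, in which the genotypes of a side share one mean, called 4 genes higher, and these were Il2rg, Irak3, Madcam1 and Nfkbie.

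The rule for genes with the smallest signed difference between the deficient genotypes also gave Zfp811, Plbd1, Btnl9 and Cd55. Zfp811, a zinc finger gene, measured 0.197 to 0.503 CPM in the intact livers, 2.23, 1.77 and 2.25 CPM in the Casp8 Mlkl dKO livers and 0.885, 0.792 and 1.08 CPM in the Casp8 Tnfr1 dKO livers. It was higher in the Casp8 Mlkl dKO livers than in the Casp8 Tnfr1 dKO livers without overlap, yet the difference of −1.18 (SE 0.36) was not called (adjusted p = 0.165). Plbd1, a phospholipase B-like gene, changed by 1.60 and 1.26 in the 2 genotypes, with 67.3 CPM in Casp8 Mlkl dKO replicate 1 against 25.6 to 44.9 CPM in the other deficient livers. Btnl9, a butyrophilin-like gene, and Cd55, a membrane inhibitor of complement, had mean changes of 0.67 (adjusted p = 0.0427) and 0.43 (adjusted p = 0.0458), each lost in 9 of the 11 fits that left out a liver.

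Most of the shared genes moved further in the Casp8 Tnfr1 dKO livers. Across the 216 genes the median change was 0.82 in Casp8 Mlkl dKO and 2.01 in Casp8 Tnfr1 dKO, beside medians of 0.02 and −0.01 over all tested genes. The 216 genes were chosen on these livers, so the medians are a description, and both comparisons use the same 5 intact livers. Casp8 Tnfr1 dKO was further from the intact livers for 204 of the 216 and Casp8 Mlkl dKO for 12. The change exceeded 1 on the log2 scale for 181 genes in Casp8 Tnfr1 dKO and for 87 in Casp8 Mlkl dKO, and it exceeded 3 for 60 and 8. Set directly against Casp8 Mlkl dKO, Casp8 Tnfr1 dKO was called higher for 94 of the 216 and lower for 0, where 265 of all tested genes (1.54%) were called higher and 20 (0.116%) lower, 1.65% in all. The genotypes lay within 0.5 of each other for 38 of the 216. Casp8 Mlkl dKO replicate 1 was the highest Casp8 Mlkl dKO liver for 180 of the 216, and Casp8 Tnfr1 dKO replicate 3 the highest of its genotype for 129. Without Casp8 Mlkl dKO replicate 1 the median change in Casp8 Mlkl dKO was 0.60, and without both livers the medians were 0.61 and 1.85.

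Alone against the 5 intact livers, Casp8 Tnfr1 dKO had 1407 genes called higher (8.16%) and 162 lower (0.94%), or 9.1% in all, and Casp8 Mlkl dKO had 14 higher (0.0812%) and 3 lower (0.0174%). The count for Casp8 Mlkl dKO was 85 higher without Casp8 Tnfr1 dKO replicate 3 and between 0 and 7 without any 1 of the other 10 livers, and unadjusted p fell under 0.05 for 649 genes higher and 129 lower. Of the 368 genes called higher on average, 365 were called in Casp8 Tnfr1 dKO, 12 in Casp8 Mlkl dKO and 11 in both.

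The 14 genes called higher in Casp8 Mlkl dKO were Ifi44, Madcam1, Zfp811 and Cxcl10, which the rule above or a gene list names, and Irak3, Nfkbie, Il2rg, Irf7, Rnf213, Parp14, Oas1b, Btbd11, Asb2 and Tspan10, which are given after their values were seen. Irf7, the transcription factor that amplifies type I interferon, measured 7.14 to 8.81 CPM in the intact livers, 46.4, 19.6 and 22.1 CPM in the Casp8 Mlkl dKO livers and 188, 156 and 227 CPM in the Casp8 Tnfr1 dKO livers. Rnf213, an interferon-induced ubiquitin ligase, measured 62.5 to 75.9 CPM in the intact livers, 168, 164 and 160 CPM in the Casp8 Mlkl dKO livers and 821, 697 and 641 CPM in the Casp8 Tnfr1 dKO livers. Both genes had the intact livers lowest, the Casp8 Mlkl dKO livers between and the Casp8 Tnfr1 dKO livers highest, with no overlap. Asb2, a ubiquitin ligase subunit, went another way, with 16.2 to 21.5 CPM in the Casp8 Mlkl dKO livers against 4.50 to 6.79 CPM in the intact livers and 4.41 to 7.07 CPM in the Casp8 Tnfr1 dKO livers. Btbd11 was likewise higher in Casp8 Mlkl dKO than in Casp8 Tnfr1 dKO (log2 difference −2.04 for Casp8 Tnfr1 dKO minus Casp8 Mlkl dKO, adjusted p = 0.00569). Tspan10 had 50, 27 and 27 counts in the Casp8 Mlkl dKO libraries, 0, 1 and 0 in the Casp8 Tnfr1 dKO libraries and at most 2 in any intact library, too few for a fold change between the genotypes. The 3 genes called lower in Casp8 Mlkl dKO were Casp8, Mlkl and Ccl24, an eosinophil chemokine that measured 4.10 to 6.63 CPM in the intact livers, 1.26 to 1.54 CPM in the Casp8 Mlkl dKO livers and 23.03 to 44.8 CPM in the Casp8 Tnfr1 dKO livers.

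Among the genes higher in both, the 5 with the largest difference between the Casp8-deficient genotypes were Sele, Ccl2, Acod1, Gpnmb and Ifit1. Ccl2, a chemokine for monocytes, measured 0.304 to 0.576 CPM in the intact livers, 0.892, 1.42 and 0.955 CPM in the Casp8 Mlkl dKO livers and 21.4, 23.8 and 64.5 CPM in the Casp8 Tnfr1 dKO livers. Gpnmb, a glycoprotein of macrophages, measured 0.789 to 1.69 CPM in the intact livers, 2.68, 1.86 and 3.25 CPM in the Casp8 Mlkl dKO livers and 79.2, 108 and 46.4 CPM in the Casp8 Tnfr1 dKO livers. In both the Casp8 Mlkl dKO livers lay just above the intact livers and far below the Casp8 Tnfr1 dKO livers. The difference between the genotypes was 5.05 for Ccl2 (SE 0.47, adjusted p = 0.000896), 5.03 for Acod1, which makes itaconate in activated macrophages (SE 0.35, adjusted p = 0.000168), 4.91 for Gpnmb (SE 0.40, adjusted p = 0.000446) and 4.50 for Ifit1, an antiviral RNA-binding protein (SE 0.41, adjusted p = 0.000896). Sele, or E-selectin, which activated endothelium displays to leukocytes, measured 2.99, 2.75 and 26.4 CPM in the Casp8 Tnfr1 dKO livers against 0.162 to 0.344 CPM in the Casp8 Mlkl dKO livers and at most 0.0821 CPM in the intact livers. The highest value was Casp8 Tnfr1 dKO replicate 3. The difference of Sele between the genotypes was 5.35 (SE 0.96, adjusted p = 0.0259), and its mean change of 5.03, or 4.21 without both livers that stood apart, was no longer called when any 1 intact liver was left out.

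Each Casp8-deficient genotype was also set against a Casp8-intact genotype, Casp8 Mlkl dKO against WT and Casp8 Tnfr1 dKO against Tnfr1 KO, so that the 2 comparisons shared no liver. The first differs by loss of both Casp8 and Mlkl, with 3 livers against 3. The second differs by loss of Casp8 alone, with 3 livers against 2. Casp8 Mlkl dKO against WT had 1 gene called higher (0.0058%) and 0 lower by edgeR, with 709 higher and 262 lower at an unadjusted p under 0.05, 79 and 11 calls by DESeq2, and 1 and 0 by limma-voom. With quality weights, which count the livers that stand apart for less, limma-voom called 551 and 491. Casp8 Tnfr1 dKO against Tnfr1 KO had 353 higher (2.05%) and 21 lower (0.122%), or 2.17% in all. Rnf213 was the 1 gene called in both, by 1.30 (adjusted p = 0.0464) and 3.30 (adjusted p = 3.33e-05). The number of genes called in both was 0 in 9 of the 11 fits that left out a liver, 0 with hemoglobin genes left out of the library sizes, 17 without Casp8 Tnfr1 dKO replicate 3 and 261 without both livers that stood apart. Of the 353 genes, 332 were also higher in Casp8 Mlkl dKO than in WT, where 53.4% of all tested genes were, and their median change there was 0.54 beside 2.15 in Casp8 Tnfr1 dKO. Of the 21 lower genes, 17 were also lower, with medians of −0.18 and −2.20. Over all tested genes 64.6% had the same sign in both, with Pearson's r = 0.389 and Spearman's rho = 0.354 across genes, which are not independent replicates and share their read depth and gene models. The test of the difference between the 2 comparisons called 26 genes (0.151%) further up and 2 (0.0116%) further down in Casp8 Tnfr1 dKO. Cxcl10, which recruits activated T cells, was 5.14 above Tnfr1 KO and 1.44 above WT (difference 3.71, adjusted p = 0.00156).

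**Figure D2:**
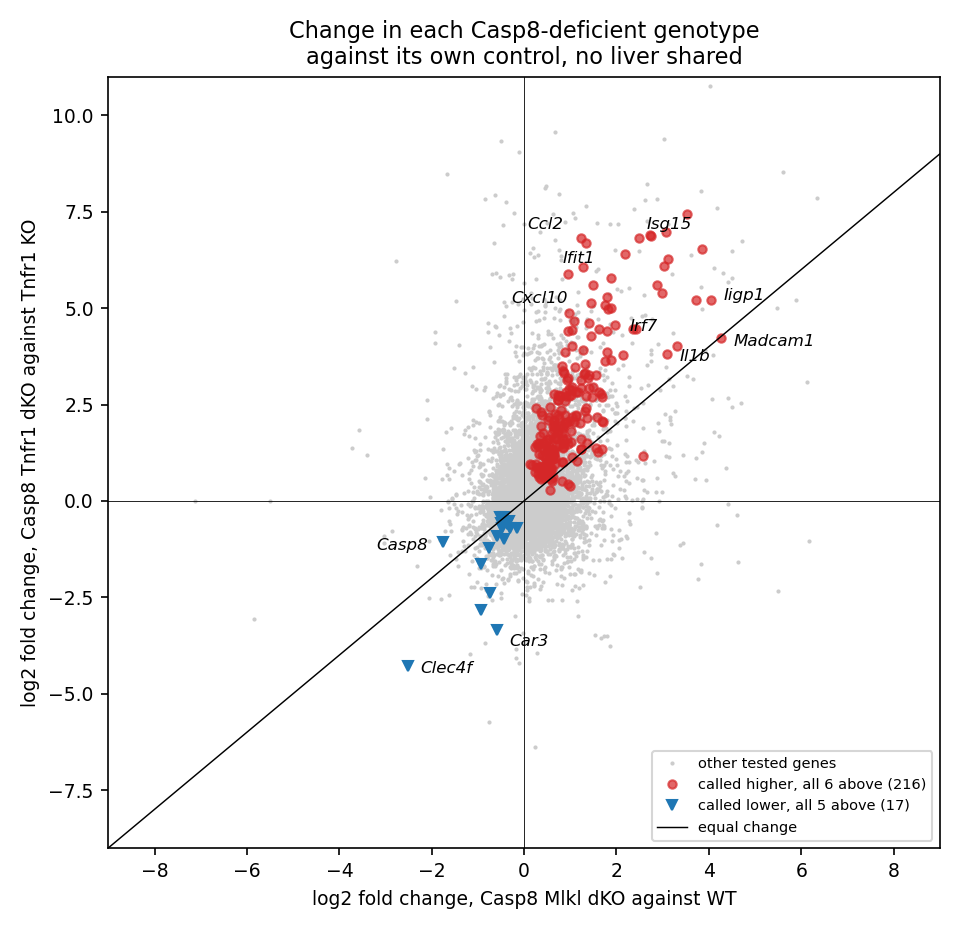
Log2 change of each tested gene in Casp8 Mlkl dKO against WT (x axis) and in Casp8 Tnfr1 dKO against Tnfr1 KO (y axis), comparisons that share no liver, with the 216 genes called higher and not overlapping in red, the 17 lower in blue, and a line of equal change. The red points lie mostly above that line, and 3 genes lie outside the axes.

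The gene lists were chosen with earlier results of these data known, so their counts are a description. Without both livers that stood apart, 2227 genes were called higher and 1666 lower over all tested genes. List counts from that fit are to be read beside those numbers. The interferon-stimulated genes were nearly all called. Of 47 such genes, 46 were called higher in Casp8-deficient livers and 40 did not overlap, where 2.13% of all tested genes were called higher. Uba7, the enzyme that activates ISG15, was the exception (1.34, adjusted p = 0.129). The median change was 2.29 on average, 1.08 in Casp8 Mlkl dKO and 3.37 in Casp8 Tnfr1 dKO. All 47 were called in Casp8 Tnfr1 dKO against the intact livers (8.16% of all genes), 4 were called in Casp8 Mlkl dKO (0.0812% of all genes), and 40 were called higher in Casp8 Tnfr1 dKO than in Casp8 Mlkl dKO (1.54% of all genes). The summed level of the 47 genes was 796 to 863 CPM in the intact livers, 2006, 1271 and 1331 CPM in the Casp8 Mlkl dKO livers and 5647, 5039 and 9039 CPM in the Casp8 Tnfr1 dKO livers. Without Casp8 Mlkl dKO replicate 1 the median in that genotype was 0.72 and 44 genes were called, and without both livers that stood apart all 47 were called, with medians of 0.73 and 3.22. Ifit1 had a mean change of 4.29 (SE 0.33, adjusted p = 0.00019).

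Genes of the interferon-gamma response and antigen presentation gave a similar picture, with 23 of 25 called higher and 17 not overlapping, beside 2.13% and 3.47% of all tested genes. Psmb10, an immunoproteasome subunit, and Tap2, a peptide transporter, were not called (0.71 and 0.59). The medians were 0.84 in Casp8 Mlkl dKO and 2.75 in Casp8 Tnfr1 dKO, or 0.60 and 2.70 without both livers that stood apart. Cxcl10 measured 5.38, 5.24 and 4.81 CPM in the WT livers, 3.47 and 2.55 CPM in the Tnfr1 KO livers, 15.6, 12.3 and 13.9 CPM in the Casp8 Mlkl dKO livers and 125, 103 and 92.7 CPM in the Casp8 Tnfr1 dKO livers. The livers of a genotype were close together and no genotype overlapped another. Cxcl10 had a mean change of 3.29 (SE 0.14, adjusted p = 1.19e-05), with 1.82 in Casp8 Mlkl dKO (adjusted p = 0.00544) and 4.76 in Casp8 Tnfr1 dKO (adjusted p = 1.07e-06). The call in Casp8 Mlkl dKO was lost without Tnfr1 KO replicate 2 or without Casp8 Mlkl dKO replicate 3. Nlrc5, the transactivator of class I antigen presentation genes, had a mean change of 3.04 (SE 0.36, adjusted p = 0.00227).

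**Figure D3:**
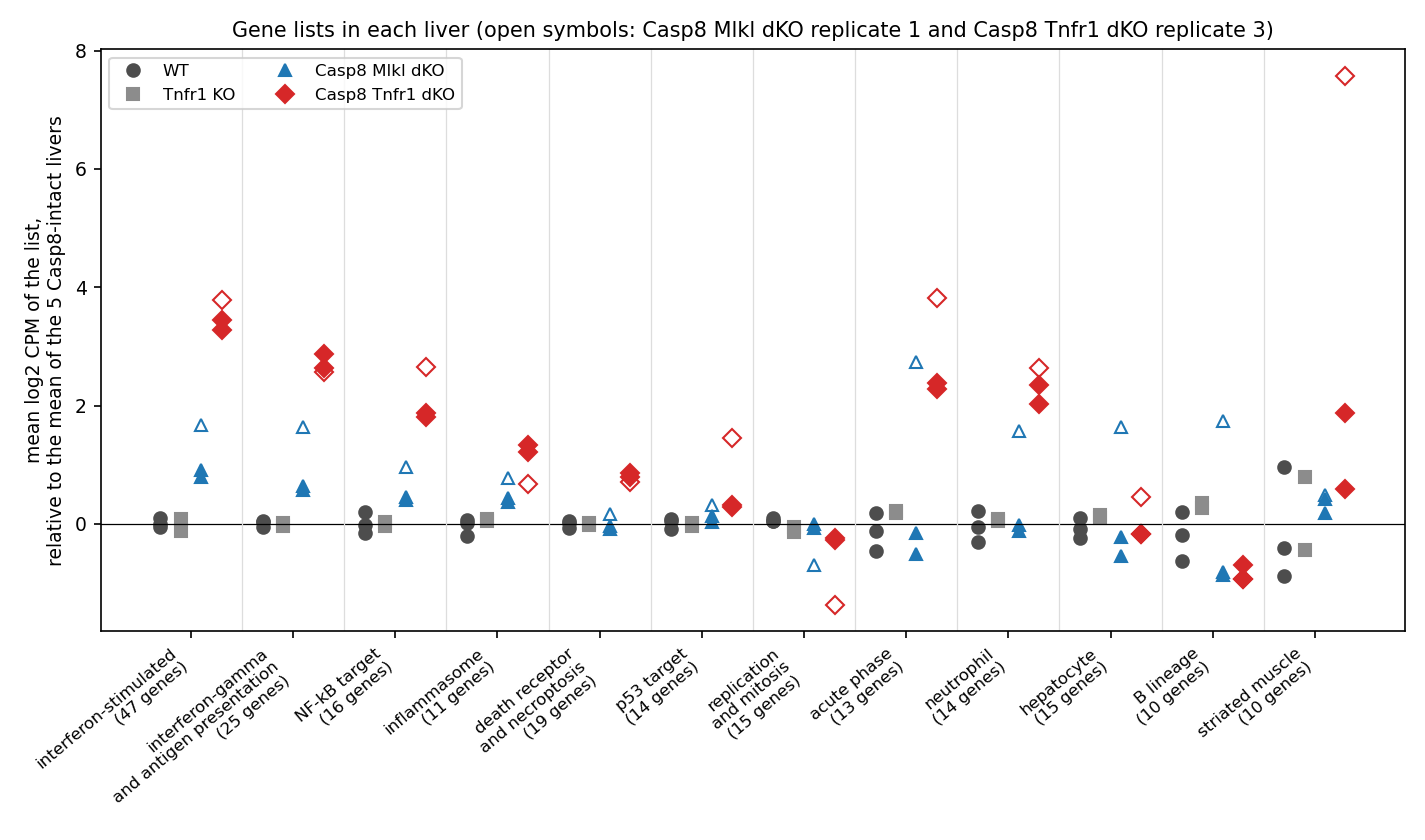
Mean log2 CPM of 12 gene lists in each liver, relative to the mean of the 5 Casp8-intact livers, with open symbols for Casp8 Mlkl dKO replicate 1 and Casp8 Tnfr1 dKO replicate 3. For interferon-stimulated genes the Casp8-deficient livers lie above all intact livers also without the open symbols, whereas the striated muscle list stands out in Casp8 Tnfr1 dKO replicate 3 and the B lineage list is high in Casp8 Mlkl dKO replicate 1 and low in the other deficient livers.

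Of 16 NF-κB targets, 9 were called higher and 10 did not overlap, beside 2.13% and 3.47% of all tested genes. Their medians were 0.80 in Casp8 Mlkl dKO and 1.84 in Casp8 Tnfr1 dKO. Without both livers that stood apart 11 were called higher, beside 2227 of all tested genes. Relb, an NF-κB subunit, measured 1.93 to 2.98 CPM in the intact livers, 8.11, 6.10 and 6.57 CPM in the Casp8 Mlkl dKO livers and 9.06, 9.98 and 30.7 CPM in the Casp8 Tnfr1 dKO livers. Nfkbia, the inhibitor IκBα, measured 10.01 to 13.6 CPM in the intact livers, 38.1, 16.5 and 16.7 CPM in the Casp8 Mlkl dKO livers and 37.3, 42.2 and 143 CPM in the Casp8 Tnfr1 dKO livers. In both the highest Casp8 Tnfr1 dKO value was replicate 3, and Nfkbia lost its call (1.87, adjusted p = 0.043) in 8 of the 11 fits that left out a liver. Cxcl1, a neutrophil chemokine, was called (1.90, adjusted p = 0.0182) with overlapping livers, at 0.841 to 2.07 CPM in Casp8 Mlkl dKO, 1.03 to 2.30 CPM in the intact livers and 15.4999 to 33.3 CPM in Casp8 Tnfr1 dKO. Cxcl2, Ccl5, Tnfaip3, Il6, Vcam1, Sod2 and Tnfaip2 were not called.

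Of the 11 inflammasome genes, 4 were called higher, namely Il1b, Casp4, Gsdmd and Casp1, beside 2.13% of all tested genes. Without both livers that stood apart 8 were called higher, beside 2227 of all tested genes. Casp4, the caspase that senses cytosolic lipopolysaccharide, measured 0.691 to 1.30 CPM in the intact livers, 2.9999, 1.74 and 2.48 CPM in the Casp8 Mlkl dKO livers and 10.4, 9.60 and 38.6 CPM in the Casp8 Tnfr1 dKO livers. It did not overlap between the sides, and its mean change was 3.01 (SE 0.45, adjusted p = 0.00768). Gsdmd, the pore-forming substrate of these caspases, changed by 0.37 in Casp8 Mlkl dKO and 1.52 in Casp8 Tnfr1 dKO. Casp1, the inflammasome protease, changed by 0.32 and 1.38. The call of Casp1 was lost in 6 of the 11 fits that left out a liver, and that of Gsdmd in 4. Nlrp3, Pycard, Il18, Nlrc4, Aim2, Nlrp1a and Nlrp1b were not called.

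Of 19 genes of the death receptor and necroptosis pathway, Zbp1, Tnf and Tlr3 were called higher, beside 2.13% of all tested genes, and Casp8 was called lower. Without both livers that stood apart 9 were called higher, among them Tnfrsf10b, Tlr4, Ripk3, Ripk1 and Tnfrsf1a, beside 2227 of all tested genes. Zbp1 measured 0.394 to 0.874 CPM in the intact livers, 2.07, 0.872 and 1.34 CPM in the Casp8 Mlkl dKO livers and 35.8, 27.1 and 31.4 CPM in the Casp8 Tnfr1 dKO livers. The Casp8 Tnfr1 dKO livers lay far above all others, while Casp8 Mlkl dKO replicate 2 was level with the highest intact liver. Zbp1 changed by 3.30 on average (SE 0.28, adjusted p = 0.000365), by 1.06 in Casp8 Mlkl dKO (adjusted p = 0.693) and by 5.53 in Casp8 Tnfr1 dKO (adjusted p = 1.2e-05). Tlr3, the receptor for double-stranded RNA, changed by 1.09 (adjusted p = 0.0125), at 0.33 in Casp8 Mlkl dKO and 1.85 in Casp8 Tnfr1 dKO. Tnf, the ligand of TNFR1, changed by 1.999 (adjusted p = 0.0413) and lost its call in 8 of the 11 fits that left out a liver. None of these 3 genes was free of overlap between the sides. Tnfrsf10b, the receptor for TRAIL, had all deficient livers above all intact livers, at 1.49 to 2.11 CPM against 0.907 to 1.26 CPM, and was not called (0.73, adjusted p = 0.111). The kinase Ripk3 had a mean change of 0.55 (adjusted p = 0.269), with 59.6 CPM in Casp8 Tnfr1 dKO replicate 3 against 16.1 to 27.5 CPM in the other livers. Tnfrsf1a had one of 1.07 (adjusted p = 0.258), with 425 CPM in the same liver against 45.4 to 77.2 CPM elsewhere. Mean changes were 0.77 for Fas (adjusted p = 0.384), 0.57 for Tlr4 (adjusted p = 0.0685), 0.40 for Cflar, which encodes cFLIP, 0.21 for Ticam1, which encodes TRIF, 0.20 for Ripk1 and 0.08 for the deubiquitinase Cyld. They were −0.06 for Bid, −0.07 for Tradd and −0.30 for Fadd.

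The remaining lists gave few calls in the full set, where 2.13% of all tested genes were called higher. Without both livers that stood apart, 2227 of all tested genes were called higher and 1666 lower. Of 14 p53 targets, Pmaip1, which encodes the cell death activator NOXA, was called, at 2.92 to 4.30 CPM in the intact livers, 6.50 to 7.22 CPM in the Casp8 Mlkl dKO livers and 10.9 to 23.9 CPM in the Casp8 Tnfr1 dKO livers (1.56, adjusted p = 0.00874), and 4 were called without both livers that stood apart. Of 13 acute phase genes, Saa3 and Lcn2 were called, beside 2.13% of all tested genes, and both overlapped between the sides. The call of Saa3 was lost in 7 of the 11 fits that left out a liver and that of Lcn2 in 5, while 10 genes of the list were called without both livers that stood apart. Lcn2 measured 48.0 and 46.9 CPM in Casp8 Mlkl dKO replicates 2 and 3, which is below the intact livers at 48.99 to 78.2 CPM, 267 CPM in replicate 1 and 1100.3 to 3249 CPM in the Casp8 Tnfr1 dKO livers. The median of the acute phase genes in Casp8 Mlkl dKO was 1.30, and −0.37 without replicate 1. Of 15 genes of replication and mitosis, 0 were called in either direction by edgeR, 1 fell below an unadjusted p of 0.05, and DESeq2 and limma-voom called 0, while 5 were called lower without both livers that stood apart.

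Cell type markers were counted in the same way. Over all tested genes 2.13% were called higher and 0.139% lower in the full set. Without both livers that stood apart 2227 genes were called higher and 1666 lower, and without Casp8 Mlkl dKO replicate 1 alone 351 and 88. Marker counts from those fits are to be read beside these numbers. The 14 neutrophil genes summed to 1178 to 1707 CPM in the intact livers, 3624, 1378 and 1518 CPM in the Casp8 Mlkl dKO livers and 5517, 6810 and 15814 CPM in the Casp8 Tnfr1 dKO livers. Casp8 Mlkl dKO replicates 2 and 3 lay within the range of the intact livers. Mmp9, a secreted protease of neutrophils, was the 1 gene of the list called (2.95, adjusted p = 0.0429), a call lost in 6 of the 11 fits that left out a liver, and 10 of the 14 were below an unadjusted p of 0.05. Without both livers that stood apart, all 14 were called, with medians of −0.26 in Casp8 Mlkl dKO and 2.49 in Casp8 Tnfr1 dKO. Of 12 endothelial genes 0 were called by edgeR (4 at an unadjusted p under 0.05, 1 by DESeq2), while Flt1, Pecam1, Emcn and Tie1 had all deficient livers above all intact livers, beside 3.47% of all tested genes, and 4 of the 12 were called without both livers that stood apart. Of 11 stem and progenitor genes, Ly6a was called (2.19, adjusted p = 0.00418), a gene that interferon also induces, and 4 were called higher and 1 lower without both livers that stood apart. The 10 B lineage genes summed to 28.6 to 56.2 CPM in the intact livers, 143, 25.5 and 25.03 CPM in the Casp8 Mlkl dKO livers and 24.6, 26.0 and 28.2 CPM in the Casp8 Tnfr1 dKO livers, so that all but 1 deficient liver lay below the intact ones. No B lineage gene was called in the full set (0 by DESeq2 and by limma-voom as well, and 0 at an unadjusted p under 0.05), and 5 of 10 were called lower without Casp8 Mlkl dKO replicate 1 and 8 without both livers that stood apart. The 15 erythroid genes gave 0 calls by edgeR, 6 lower at an unadjusted p under 0.05 and 1 lower by DESeq2, but all 15 were called lower without both livers that stood apart, with medians of −0.17 in Casp8 Mlkl dKO and −0.47 in Casp8 Tnfr1 dKO. Their summed level was 56360 to 74613 CPM in the intact livers and 55030.5, 53687.7 and 49226 CPM in the Casp8 Mlkl dKO livers. It was 46712 and 46458 CPM in Casp8 Tnfr1 dKO replicates 1 and 2, and 176797 CPM in replicate 3, the highest of all livers. Gata1 and Ermap had all intact livers above all deficient livers, beside 1.35% of all tested genes. The 15 hepatocyte, 10 megakaryocyte, 9 stromal and 10 striated muscle genes also gave 0 calls in either direction by edgeR and by limma-voom, with 1, 0, 4 and 5 higher at an unadjusted p under 0.05 and 0, 0, 0 and 1 by DESeq2. Without both livers that stood apart 9 hepatocyte genes and 1 megakaryocyte gene were called lower and 3 stromal and 2 striated muscle genes higher. The part of neutrophil, hepatocyte, B lineage or muscle RNA in the changes above was not tested.

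On the lower side the shared genes were few and the changes smaller. The 12 leading genes were Clec4f, Ces1g, Raet1d, Slc22a8, Car3, Dclk2, Tcf7l2, Acbd4, Mxd3, Txnrd2, Slc2a4 and Ptp4a3. Clec4f, a lectin of Kupffer cells, the resident macrophages of the liver, measured 13.7, 12.2 and 10.5 CPM in the WT livers and 13.9 and 11.4 CPM in the Tnfr1 KO livers. It measured 5.47, 0.203 and 0.726 CPM in the Casp8 Mlkl dKO livers and 1.16, 0.551 and 0.114 CPM in the Casp8 Tnfr1 dKO livers. All 6 deficient livers lay below the intact livers, with Casp8 Mlkl dKO replicate 1 the highest of the 6. The mean change of Clec4f was −3.41 (SE 0.72, adjusted p = 0.0412), with −2.55 and −4.26 in the genotypes, and it was −4.51 without Casp8 Mlkl dKO replicate 1. Of the 17 macrophage genes Clec4f alone was called in the full set. Without both livers that stood apart 6 were called higher and 5 lower, beside 2227 and 1666 of all tested genes. Vsig4, also a Kupffer cell gene, changed by −0.22 in Casp8 Mlkl dKO and −5.92 in Casp8 Tnfr1 dKO, and Adgre1, the macrophage marker F4/80, by 1.31 and −0.72. The summed level of the 17 genes was 780 to 1052 CPM in the intact livers, 2395, 993 and 1081 CPM in the Casp8 Mlkl dKO livers and 1178 to 1247 CPM in the Casp8 Tnfr1 dKO livers.

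Car3, a carbonic anhydrase of liver, muscle and fat, measured 214, 214 and 178 CPM in the WT livers and 228 and 242 CPM in the Tnfr1 KO livers. It measured 121, 127 and 154 CPM in the Casp8 Mlkl dKO livers and 26.8, 19.4 and 23.5 CPM in the Casp8 Tnfr1 dKO livers. The 3 levels were separate, and neither of the livers that stood apart was out of place. Car3 changed by −1.97 (SE 0.12, adjusted p = 0.000103), by −0.70 in Casp8 Mlkl dKO (adjusted p = 0.265) and by −3.23 in Casp8 Tnfr1 dKO (adjusted p = 1.04e-05), and it alone of the 12 stayed called whichever liver was left out. It was also the 1 gene of the 17 called different between the deficient genotypes (−2.53, SE 0.17, adjusted p = 0.000168). Ces1g, a carboxylesterase, changed by −1.88 (adjusted p = 0.00921), Slc22a8, an organic anion transporter, by −1.56 (adjusted p = 0.0394) and Raet1d, a ligand of the NKG2D receptor, by −1.29 (adjusted p = 0.0355), although 55.8% of the Raet1d sequence is shared with Raet1e. The other 7 genes changed by −0.43 to −0.71. They were the kinase Dclk2, the MAX partner Mxd3, the Wnt effector Tcf7l2, the glucose transporter Slc2a4, the phosphatase Ptp4a3, the acyl-CoA-binding Acbd4 and the mitochondrial thioredoxin reductase Txnrd2. Across the 17 lower genes the medians were −0.53 in Casp8 Mlkl dKO and −0.89 in Casp8 Tnfr1 dKO, and Casp8 Tnfr1 dKO was further from the intact livers for 16 of them.

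Genes near Casp8 were examined because flanking sequence travels with a targeted allele. Within 500 kb of Casp8 on chromosome 1, 16 other genes were tested and 0 were called by edgeR (1 at an unadjusted p under 0.05, 0 by DESeq2, 0 by limma-voom and 5 by limma-voom with quality weights), and none was free of overlap. Without both livers that stood apart Stradb, Trak2, Cflar and Gm20257 were called. Over all tested genes that fit called 2227 higher and 1666 lower, and the fit with quality weights 2340 and 1867. Mean changes of the 16 genes in the full set ran from −0.44 for Gm37760, a transcript inside the Casp8 locus, to 0.56 for Clk1. Cflar, the nearest tested protein-coding neighbour and the partner of caspase-8, measured 37.0 to 49.2 CPM in the intact livers, 82.5, 46.4 and 54.3 CPM in the Casp8 Mlkl dKO livers and 51.9 to 59.7 CPM in the Casp8 Tnfr1 dKO livers, and its change was 0.40 (SE 0.15, adjusted p = 0.221). Trak2, a kinesin adaptor gene on the other side, measured 825 to 965 CPM in the intact livers and 570 to 969 CPM in the deficient livers (−0.29, SE 0.16, adjusted p = 0.372), with a change of −0.37 without both livers that stood apart. Stradb, a pseudokinase gene beside Trak2, measured 95.04 to 112 CPM in the intact livers, 74.6 to 93.4 CPM in 5 deficient livers and 175 CPM in Casp8 Tnfr1 dKO replicate 3, so that its change was −0.05 with that liver (adjusted p = 0.908) and −0.30 without it, when it was called. The splicing kinase gene Clk1 was at 865 CPM in Casp8 Tnfr1 dKO replicate 3 and at 100 to 152 CPM in the other 10 livers, and its change of 0.56 (SE 0.49, adjusted p = 0.573) became −0.25 without that liver and Casp8 Mlkl dKO replicate 1. Among the others the changes were 0.47 for Gm20257, 0.26 for Fam126b, 0.21 for Gm37607, 0.06 for Gm15834, −0.06 for Tmem237, −0.12 for Bzw1, −0.14 for Ppil3, −0.23 for Nif3l1, −0.41 for Ndufb3 and −0.41 for Orc2. Several of these, such as Orc2 and Nif3l1, overlap each other and may share reads.

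Within 5 Mb, 1 of 73 neighbours was called (1.37%) and 2 did not overlap (2.74%), where 2.27% of all tested genes were called and 4.81% did not overlap. On the rest of the chromosome 30 of 1020 genes were called (2.94%) and 56 did not overlap (5.49%). The called neighbour was Nrp2, a receptor for semaphorins and vascular growth factors that starts 3908 kb from Casp8 (62703285 to 62818695). Nrp2 measured 13.6, 11.4 and 8.95 CPM in the WT livers, 12.9 and 9.31 CPM in the Tnfr1 KO livers, 22.7, 19.96 and 22.9 CPM in the Casp8 Mlkl dKO livers and 23.6, 20.3 and 48.2 CPM in the Casp8 Tnfr1 dKO livers. Its deficient livers lay above its intact livers, with Casp8 Tnfr1 dKO replicate 3 far above the rest. The mean change was 1.21 (SE 0.24, adjusted p = 0.0337), and the call was lost in 8 of the 11 fits that left out a liver, those without an intact liver or a Casp8 Mlkl dKO liver. Raph1, the other neighbour without overlap and named after its values were seen, measured 109 to 140 CPM in the intact livers and 149 to 279 CPM in the deficient livers (0.56, adjusted p = 0.0685). In the comparisons that share no liver, 0 of the 73 were called in either (6 for Casp8 Mlkl dKO against WT and 11 for Casp8 Tnfr1 dKO against Tnfr1 KO at an unadjusted p under 0.05). Casp8 itself was not called in either by edgeR (adjusted p = 0.0677 and 0.0742). These comparisons therefore cannot show that its neighbours were unmoved. DESeq2 called 5 of the 73 on average, beside 1082 higher and 223 lower calls over all tested genes. Without both livers that stood apart 14 of the 73 were called, beside 2227 higher and 1666 lower calls over all tested genes.

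**Figure D4:**
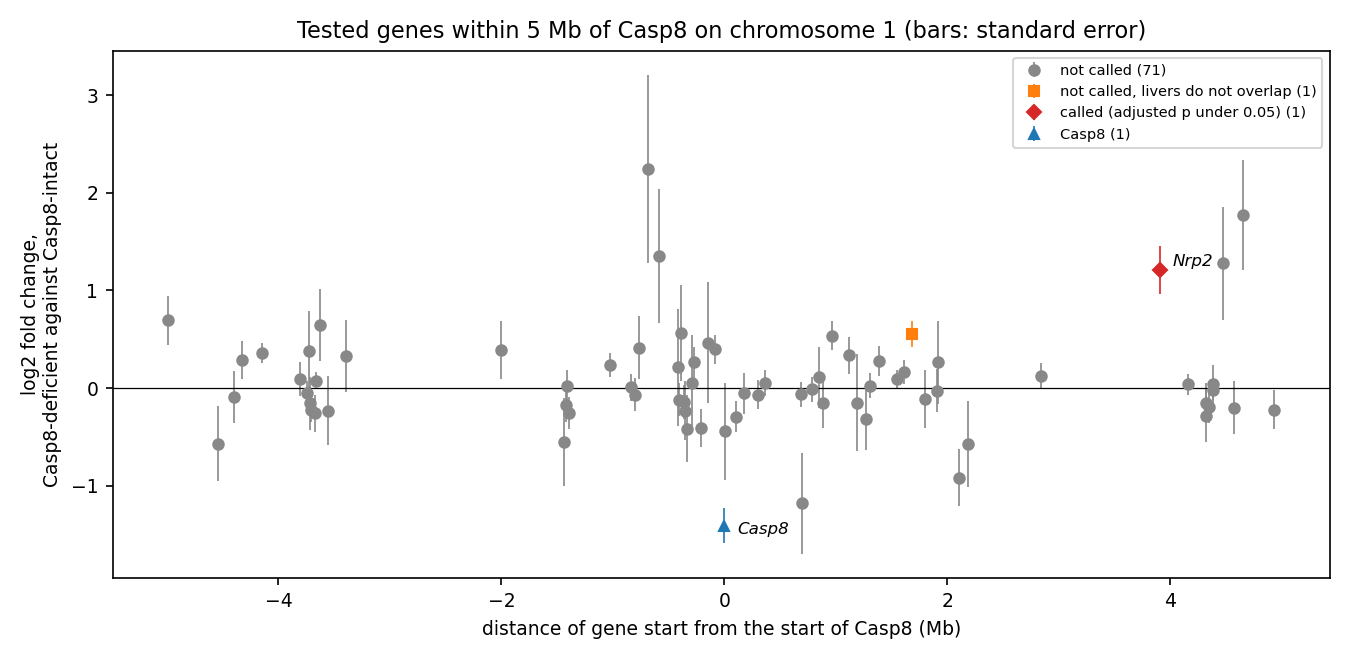
Log2 change between Casp8-deficient and Casp8-intact livers (points, with bars of 1 SE) of the tested genes within 5 Mb of Casp8, against their distance from it in Mb. Casp8 at 0 fell by 1.41, the genes within 0.5 Mb were not called, and Nrp2 was the 1 gene of 73 called.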

How the data were processed

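RNA sequencing of 11 untreated E15.5 mouse livers gave 1 table per liver. The authors aligned single-end 50-base reads to GRCm38 with GSNAP and deposited, per gene, a count of exonic reads, a summed exon width (another unit, in bases) and an RPKM computed from them. The counter and annotation release are not given in the sources used here. The labels and the study's methods name different library kits and sequencers, and use of strand is not stated. The count column alone was used. Of 52636 genes, 52489 matched GENCODE M21. Genes passing filterByExpr (minimum count 10) were fitted with edgeR 4.0.16 (R 4.3.3, TMM scaling, quasi-likelihood test, Benjamini-Hochberg adjustment), 1 mean per genotype, with genotypes weighted equally within a side. The authors' own test was limma. Adjusted p under 0.05 was a call. Genes named were the targeted ones, 12 shared genes per direction, those differing most and least between genotypes, neighbours of Casp8 and, per list, up to 4 called members. Other list members and neighbours named were chosen after their values were seen. The members and the gene lists were chosen with earlier results of these data known. The edgeR fit was run on simulated counts with a smaller spread than these livers and with no liver standing apart. That run does not test the fit under the conditions of these data. Alternatives were other scalings and filters, DESeq2 1.42.0, limma-voom 3.58.1 with and without quality weights, a fit on Casp8 status only, a replicate block, and leaving livers out. Some list members and neighbours are not reported here.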

Additional observations from a re-analysis of the deposited data

Results flagged for a closer look

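Over 37 genes, 74 groups of 5 or 6 livers were examined for 1 liver far from the others, and 4 were found. Chance gives about 1 in 20, so the count is close to that rate and nothing is read from it. Each group pools 2 genotypes, for which the rate need not hold. In Casp8 Tnfr1 dKO replicate 3, Tnfrsf1a was at 425 CPM and Nrp2 at 48.2 CPM, each far above the other 5 Casp8-deficient livers. Among the intact livers, Ces1g was at 17.0 CPM in Tnfr1 KO replicate 1, above the other 4, and Mlkl was at 3.68 CPM in Tnfr1 KO replicate 2, below the other 4.

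For 6 of the 37 genes the change in Casp8 Tnfr1 dKO against Tnfr1 KO was called different from the change in Casp8 Mlkl dKO against WT, beside 28 of all tested genes (0.162%). Ccl2, Acod1, Gpnmb and Ifit1 were among the 37 because they differed most between the Casp8-deficient genotypes, so their values are a description and nothing is read from the count. The difference was 5.59 for Ccl2, 5.33 for Acod1, 4.94 for Gpnmb, 4.21 for Ifit1, 4.22 for Mlkl, which is targeted in one of the genotypes, and −2.75 for Car3, which fell further in Casp8 Tnfr1 dKO.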

How the results depend on the processing

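Directions were steadier than calls: of 1816 values of the named results under the alternatives, 1457 kept their direction and side of the threshold, 332 were no longer called, 26 became called, and 1 reversed, Clk1 at −0.25 without the livers that stood apart. The fits with DESeq2, with quality weights, on Casp8 status only, with the replicate block and without both livers that stood apart (chosen after seeing the data) gave, in this order, 1082, 2340, 4, 201 and 2227 genes higher in Casp8-deficient livers and 223, 1867, 0, 6 and 1666 lower. DESeq2, quality weights, the replicate block and the set without both livers gave 93, 391, 1 and 387 genes higher and 7, 327, 0 and 453 lower in Casp8 Mlkl dKO, 941, 2709, 144 and 3067 different between the Casp8-deficient genotypes, and 197, 1935, 8 and 1869 different between the comparisons that share no liver. For Casp8 Tnfr1 dKO, quality weights, the replicate block and the set without both livers gave 3013, 720 and 3015 higher and 2235, 52 and 2113 lower, with 611 lower by DESeq2. Without a filter on low counts 22 genes were higher in Casp8 Mlkl dKO, and by limma-voom 1 was lower there and 9 differed between the comparisons that share no liver. Genes called higher in both of those comparisons numbered 3 with DESeq2 size factors, 0 without hemoglobin genes in the library sizes, 10 without a filter, 3 with a mean count of at least 10, 59 by DESeq2, 247 with quality weights, 0 with the replicate block and 261 without both livers, and genes called lower in both 1 without a filter, 4 by DESeq2, 240 with quality weights and 286 without both livers. Without both livers 1066 genes had all deficient livers above and 804 all intact livers above. Near Casp8, 5 genes were called by DESeq2, 14 with quality weights, 0 on Casp8 status only, 0 with the replicate block, 14 without both livers, 0 within 1 Mb and 4 within 10 Mb.

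Leaving out 1 liver at a time gave 77 to 1040 genes higher and 3 to 325 lower in Casp8-deficient livers, 597 to 916 with all deficient and 273 to 625 with all intact livers above, 0 to 85 higher and 0 to 4 lower in Casp8 Mlkl dKO, 380 to 1843 higher and 16 to 490 lower in Casp8 Tnfr1 dKO, 0 to 17 higher and 0 to 1 lower in both comparisons that share no liver, 83 to 564 different between the genotypes, 0 to 104 different between those comparisons, and 0 to 6 near Casp8. Without a Tnfr1 KO liver, that group's lone sample is assumed to vary like the other groups. The replicate numbers share only a number: over 15 same-numbered pairs of livers, deviations from the genotype means correlated at −0.30 to 0.27, 5 over 0.1, and at −0.28 to 0.31 between different numbers. The biological coefficient of variation of 33.3% and the small groups limit what can be called.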

Other observations

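The neighbourhoods of the other targeted genes were counted in the same way. Around Mlkl on chromosome 8, 0 of 68 genes within 5 Mb were called by edgeR and 2 did not overlap (2.94%). Around Tnfrsf1a on chromosome 6, 6 of 137 genes within 5 Mb were called higher (4.38%) and 11 did not overlap (8.03%), where 2.27% and 4.81% of all tested genes did. On the rest of chromosome 6, 16 of 759 genes were called (2.11%). Each side of the comparison held livers with and without Tnfr1, and the genotypes had equal weight. The counts around Tnfrsf1a therefore cannot show a change linked to the Tnfr1 allele.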
